A study of Mus musculus with 2 samples.

Results

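*Notch2*, *Fhl3* and *Slc39a1* are 3 of the 54838 genes in the count matrices of macrophages sorted from the mouse sciatic nerve. They were chosen on measured values. An earlier look at the same cells had shown them at higher levels in cells that yielded few molecules, so their levels by depth are given here as a description, with no test. Each UMI (unique molecular identifier) stands for 1 captured RNA molecule, and cells were described in 3 bins: shallow cells with 500 or more but under 1000 UMIs, middle cells with 1000 or more but under 2000, and deep cells with 2000 or more. Both libraries came from the pooled sciatic nerves of 19 male Flt3-Cre LSL-YFP fl/fl mice aged 10 to 12 weeks, sorted as CD64+ CD45int macrophages. In these mice Cre is driven by Flt3, a gene of hematopoietic progenitors, and YFP stays on in every descendant of a cell that has recombined. YFP+ cells are read by the study as derived from hematopoietic stem cells and YFP− cells as derived from the embryo, and a cell in which recombination had failed would also be YFP−. Each group is 1 library of pooled mice. No p-value can therefore be given, and every interval below is a 95% interval that covers counting error only.

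The proteins belong to 3 unrelated families. NOTCH2 is a receptor of the Notch pathway, in which a ligand on a neighbouring cell triggers cleavage of the receptor and its intracellular part enters the nucleus to act with RBPJ on target genes. In myeloid cells *Notch2* is known for its part in monocyte and dendritic cell fate. FHL3 is a protein of LIM domains that is found at actin structures and in the nucleus, and SLC39A1, also called ZIP1, carries zinc across the plasma membrane into the cell.

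What the transcripts have in common, and the choice of the genes did not use, is an unbroken run of thymines in the 3′ UTR. It was noticed after the values had been seen. In the GENCODE M21 annotation of GRCm38, which holds 99.8% of the deposited gene identifiers, *Notch2* (ENSMUSG00000027878) lies at chr3:98013527-98150361 on the + strand and has a run of 22 thymines at chr3:98149779-98149800. *Fhl3* (ENSMUSG00000032643) lies at chr4:124700701-124708611 on the + strand with a run of 38 at chr4:124708315-124708352. *Slc39a1* (ENSMUSG00000052310) lies at chr3:90248172-90253612 on the + strand with a run of 32 at chr3:90253091-90253122. Each run is in the last exon, at 561, 259 and 490 bases from the end of the transcript. *Actb*, the gene of beta-actin, had the largest excess of UMIs in cells with a UMI of the members, as given below. It has a run of 29 at chr5:142903650-142903678 on the − strand, 535 bases from its end. The first 30 bases around each run are shown from 5′ to 3′ on the strand of the transcript, with thymines of the run in capitals. The runs of *Fhl3*, *Slc39a1* and *Actb* go on past the part shown.
Notch2: ttgggcTTTTTTTTTTTTTTTTTTTTTTat
Fhl3: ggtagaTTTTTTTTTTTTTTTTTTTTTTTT
Slc39a1: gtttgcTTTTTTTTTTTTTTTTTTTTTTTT
Actb: ttaaagTTTTTTTTTTTTTTTTTTTTTTTT

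A run of at least 22 thymines, the length in *Notch2*, was present in a transcript of 590 of the other 54720 genes of the annotation (1.08%). In 165 of these it lay within 600 bases of the end of the transcript, as in the 3 genes. Most genes of the annotation are not covered in these cells. Among the 2410 annotated genes covered well enough to be ranked by depth below, 100 had such a run (4.15%), 27 of them within 600 bases of the end. The limit of 22 was set at the shortest run of the 3 genes, and runs were counted anywhere in a transcript. The annotation also places 2 tentative gene models, *Gm42819* and *Gm42820*, on the same strand within *Notch2*. Reads there could not be told apart by their strand.

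The YFP− library held 1045 cells with a median of 2233 UMIs and 1050 genes, and the YFP+ library held 4053 cells with a median of 1484 UMIs and 774 genes. A cell is a barcode with at least 500 UMIs and 200 genes. The libraries shared 7 cell barcodes. All 10 macrophage markers checked, among them *Fcgr1*, *Csf1r* and *C1qa*, were above the floor of 3 UMIs in both libraries. The neutrophil and red cell markers, *Cd3e*, *Cd3g*, *Cd79a* and *Ms4a1* were at 0. The remaining B cell marker passed the floor in both libraries, and the remaining T cell marker did so in the YFP+ library only. Schwann cell RNA was present, with all 5 markers above the floor. Their sum was 689 CPM, the UMIs per 1000000 UMIs of all genes, among YFP− cells and 630 CPM among YFP+ cells. In YFP+ cells all 4 fibroblast markers (69.2 CPM), all 3 mural markers (68.3 CPM) and all 3 endothelial markers also passed the floor. In YFP− cells 3 of 4 fibroblast, 2 of 3 mural and 1 of 3 endothelial markers did. Of 3 platelet markers, 1 passed in each library. The mural sum was 61.6 CPM in shallow and 1.07 CPM in deep YFP− cells, and 58.8 and 110 CPM in YFP+ cells. The part of such RNA in the levels of the 3 genes was not tested.

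*Notch2* was the best covered of the 3 genes, with 317 UMIs in YFP− cells and 1804 in YFP+ cells. Its level in the YFP− library was 308 CPM (214 to 428) in shallow cells, 154 CPM (119 to 196) in middle cells and 115 CPM (100.3 to 131.5) in deep cells. In the YFP+ library the levels in the same order were 576 CPM (527 to 628), 312 CPM (290 to 336) and 162 CPM (149 to 176). In both libraries the level was highest in the shallowest cells. In descending order, the shallow YFP+ cells came first. The middle YFP+ bin and the shallow YFP− bin did not differ beyond their intervals, nor did the deep YFP+ bin and the middle YFP− bin, and the deep YFP− cells came last, with an interval that overlapped that of the middle YFP− bin.

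*Fhl3* was sparse in the YFP− library, with 42 UMIs, against 392 in the YFP+ library. In YFP+ cells its level was 174 CPM (148 to 204) in the shallow bin, 71.4 CPM (60.9 to 83.1) in the middle bin and 20.8 CPM (16.3 to 26.1) in the deep bin. These 3 intervals did not overlap. In YFP− cells it was 8.79 CPM (0.223 to 49.0) in the shallow bin, from 1 UMI in 150 cells, 32.7 CPM (17.9 to 54.9) in the middle bin and 14.4 CPM (9.48 to 20.9) in the deep bin. The shallow value is under the floor of 3 UMIs, which is 26.4 CPM in that bin, so no order can be read for *Fhl3* in YFP− cells. The lower levels did not differ beyond their intervals from the deep YFP+ bin.

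*Slc39a1* followed *Notch2*, from 173 UMIs in YFP− cells and 846 in YFP+ cells. Its level was 158 CPM (93.8 to 250.2), 95.8 CPM (68.8 to 130.0) and 60.8 CPM (50.1 to 73.0) from the shallow to the deep bin of the YFP− library. It was 273 CPM (239 to 309), 137 CPM (123 to 154) and 81.1 CPM (72.0 to 91.0) in the YFP+ library. The order of levels was the same as the order of the bins in each library. The intervals of neighbouring YFP− bins overlapped, and those of the YFP+ bins did not.

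**Figure D1:**
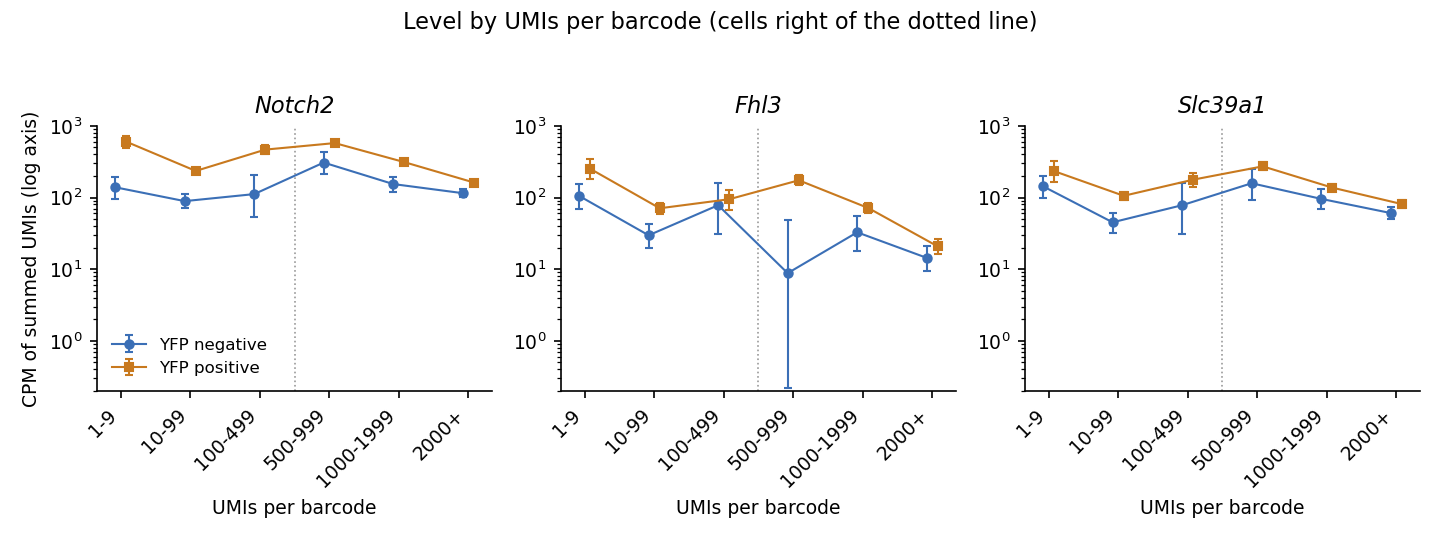
Level of each gene in CPM of summed UMIs (log axis) by UMIs per barcode, for YFP negative (circles) and YFP positive (squares) libraries, with exact Poisson 95% intervals as bars; barcodes left of the dotted line are not cells. In cells, *Notch2* and *Slc39a1* fall from the shallow to the deep bin in both libraries, and *Fhl3* does so in the YFP positive library only, its shallow YFP negative value resting on 1 UMI.

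Counted per cell, *Notch2* and *Slc39a1* were nearly flat over depth in the YFP+ library. *Notch2* gave 0.430, 0.457 and 0.444 UMIs per YFP+ cell from the shallow to the deep bin, and 0.233, 0.229 and 0.356 per YFP− cell. *Slc39a1* gave 0.204, 0.202 and 0.222 UMIs per YFP+ cell and 0.120, 0.142 and 0.188 per YFP− cell. In YFP− cells both were highest in the deep bin, with intervals that overlapped those of the shallow bin. For both genes a deep YFP+ cell, with a median of 2541 UMIs in all, thus held about as many UMIs of the gene as a shallow one, with a median of 746. *Fhl3* fell per cell too in the YFP+ library, from 0.130 to 0.105 and 0.0569 UMIs. *Actb* rose from 14.9 to 17.4 and 20.7 UMIs per YFP+ cell and from 5.05 to 8.56 and 16.02 per YFP− cell.

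**Figure D2:**
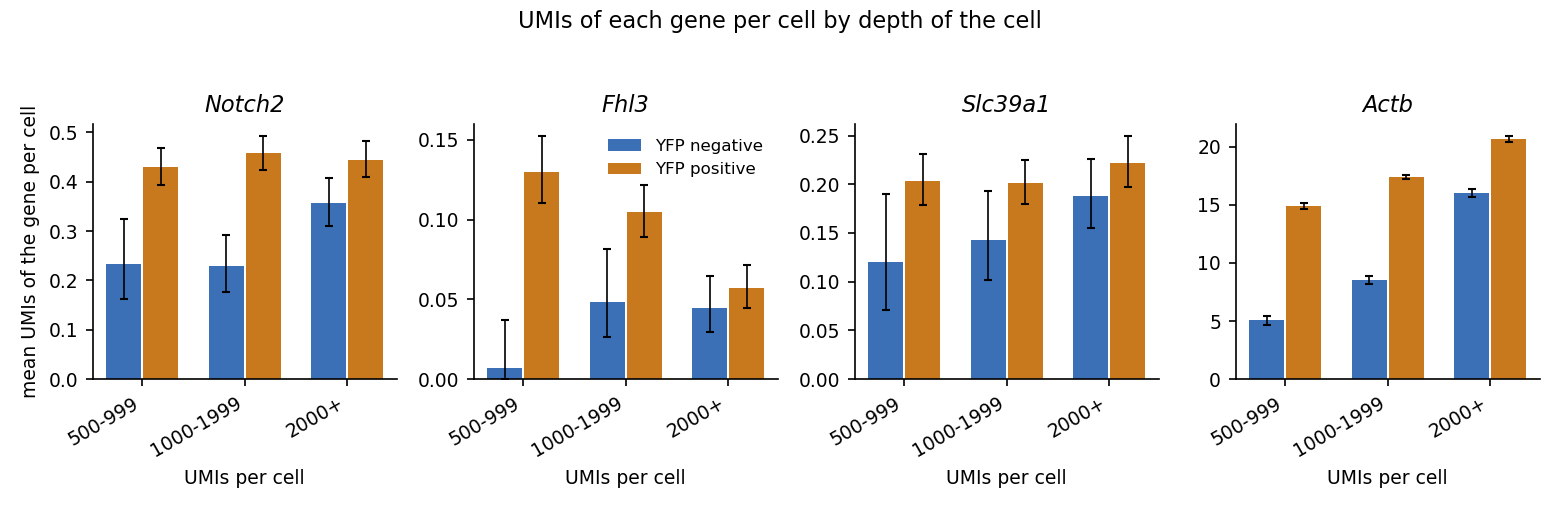
Mean UMIs of each gene per cell by UMIs per cell, for YFP negative (blue) and YFP positive (orange) libraries, with exact Poisson 95% intervals. Bars of *Notch2* stay between 0.430 and 0.457 and those of *Slc39a1* between 0.202 and 0.222 in the YFP positive library, *Fhl3* falls there to 0.0569 in the deep bin, and *Actb* rises with depth in both libraries.

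On the log2 scale, the depth ratio is the CPM of the shallow bin over that of the deep bin, with a pseudocount of 1 CPM. For *Notch2* it was 1.41 (0.85 to 1.93) in YFP− and 1.82 (1.65 to 1.995) in YFP+ cells. For *Slc39a1* it was 1.37 (0.57 to 2.09) and 1.74 (1.49 to 1.99). *Fhl3* had a ratio of 3.01 (2.61 to 3.41) in YFP+ cells, while its YFP− ratio of −0.65 had an interval of −3.70 to 1.81. At least a 2-fold rise in shallow cells was thus seen for all 3 genes in the YFP+ and for 2 of 3 in the YFP− library. Over all genes whose mean of both bins reached 20 CPM, it was seen for 2.59% of 5524 in the YFP+ and 18.7% of 5900 in the YFP− library. Since the genes were picked by this contrast, nothing is read from their count. In the shallow YFP− bin 3 UMIs come to 26.4 CPM, above the filter, so the YFP− share over all genes rests partly on low counts. The median of all genes was 0.09 and 0.28.

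Shares of cells with a UMI depend on depth, so each cell was also thinned to 500 UMIs. After thinning, *Notch2* was found in 23.4% (21.01 to 25.9) of shallow, 14.2% (12.5 to 16.05) of middle and 7.84% (6.44 to 9.44) of deep YFP+ cells, against 32.1%, 31.9% and 27.6% without thinning. *Fhl3* fell from 8.36% to 3.83% and 1.38% and *Slc39a1* from 12.1% to 6.44% and 4.46% of thinned YFP+ cells. In YFP− cells the thinned shares of *Notch2* were 11.3%, 6.25% and 6.92%, those of *Slc39a1* were 6.67%, 4.17% and 2.80%, and those of *Fhl3*, which rest on 14 cells in all, were 0.667%, 2.08% and 1.15%. In YFP− cells the intervals of the 3 bins overlapped for each gene. Without thinning, 29.4% of YFP− and 43.1% of YFP+ cells held a UMI of at least 1 of the 3 genes. A cell with a UMI mostly held a single one, as in 855 of 1239 YFP+ cells with *Notch2*, and the highest number was 7.

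RNA outside cells also carried the 3 genes. In barcodes of 10 to 99 UMIs, which are too poor to be cells, *Notch2* was at 89.1 CPM (70.8 to 110.8) in the YFP− and 235 CPM (214 to 257) in the YFP+ library. Over all cells it was at 131 CPM (117 to 146) and 267 CPM (255 to 280). *Slc39a1* was at 45.1 CPM (32.4 to 61.2) and 106 CPM (92.1 to 120.9) in those barcodes and at 71.5 CPM (61.3 to 83.0) and 125 CPM (117 to 134) in cells. *Fhl3* was at 29.7 CPM (19.6 to 43.2) and 70.8 CPM (59.7 to 83.4) there, and at 17.4 CPM (12.5 to 23.5) and 58.1 CPM (52.5 to 64.1) in cells. The level of *Fhl3* over all cells therefore did not stand above free RNA in either library, and of its bins only the shallow YFP+ cells stood above the interval of those barcodes. As a whole, deep YFP+ cells were below that interval for all 3 genes, so the levels and shares of that bin are not read as expression. Their tertile with the most *Actb* was above it for *Notch2*, at 369 CPM (335 to 405), and *Slc39a1*, at 185 CPM (161 to 212). For *Fhl3* that tertile was below it, at 40.8 CPM (30.1 to 54.1). *Actb* was chosen for its excess of UMIs in those of these cells that held a member. Its highest tertile was therefore bound to lean upward, and nothing about expression is read from it. Shallow YFP+ cells were above the interval of barcodes of 10 to 99 UMIs for all 3. Against YFP+ barcodes of 1 to 9 UMIs they did not stand above beyond the intervals. There *Notch2* was at 602 CPM (489 to 734), *Fhl3* at 252 CPM (181 to 342) and *Slc39a1* at 233 CPM (165 to 320). In deep YFP− cells the intervals of all 3 genes overlapped those of YFP− barcodes of 10 to 99 UMIs. The levels of that bin are therefore not read as standing above free RNA. YFP− barcodes of 1 to 9 UMIs held *Notch2* at 139 CPM (95.8 to 195.4) and *Slc39a1* at 143 CPM (99.3 to 200.4). Shallow YFP− cells stood above that interval for *Notch2* and not for *Slc39a1*.

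**Figure D3:**
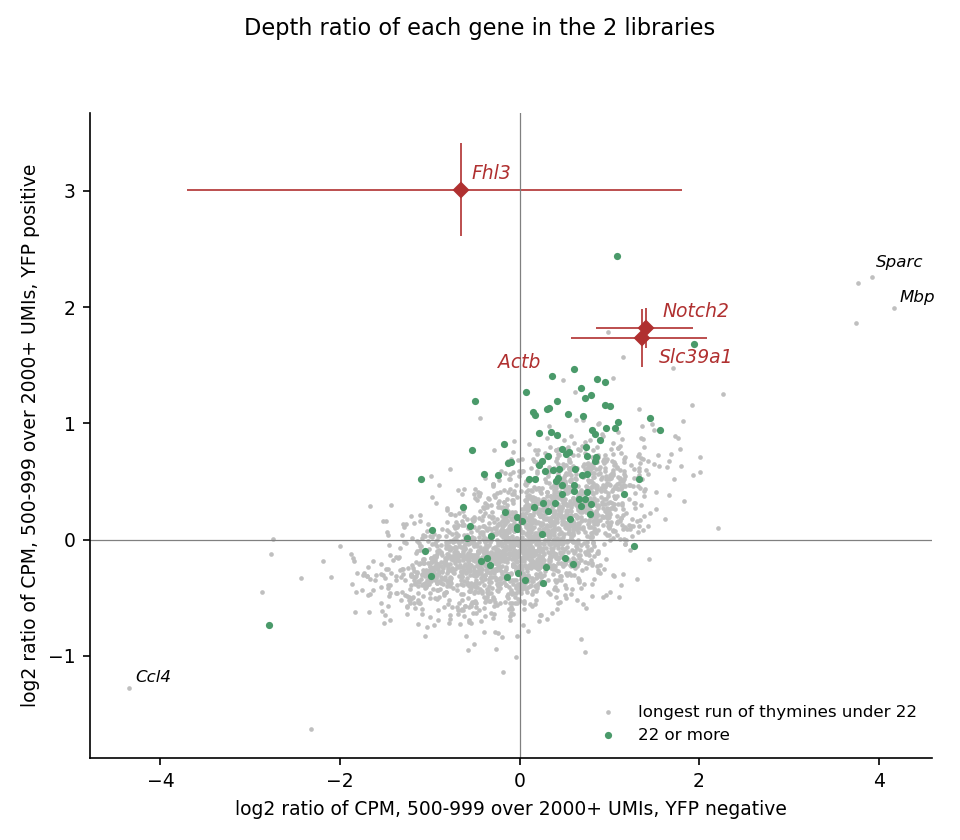
Log2 ratio of CPM in shallow over deep cells in the YFP negative (x axis) and YFP positive (y axis) library; each dot is a gene whose mean reached 50 CPM in both libraries, green where a transcript has a run of 22 or more thymines, and bars on *Notch2*, *Fhl3* and *Slc39a1* are 95% intervals. *Notch2* (1.41 and 1.82) and *Slc39a1* (1.37 and 1.74) lie together, *Fhl3* lies at 3.01 on the y axis, and *Sparc* and *Mbp* lie far to the right.

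Genes were then ranked for how alike they were to the 3 in depth, by the smaller of their depth ratios in the libraries, among 2413 genes whose mean reached 50 CPM in each. *Notch2* ranked 7 and *Slc39a1* ranked 8, and *Fhl3* was not ranked because of its low level in YFP− cells. First came *Sparc*, a matrix protein, with ratios of 3.93 in YFP− and 2.26 in YFP+ cells. The leading 15 held the myelin genes *Mbp* (4.17 and 1.99) and *Pmp22* (2.27 and 1.26), and also *Cryab* (3.75 and 1.87), a small heat-shock protein. Unlike *Notch2*, *Mbp* fell per YFP− cell, from 0.913 to 0.204 UMIs. The mitochondrial transcripts *mt-Nd4l* (1.93 and 1.16) and *mt-Atp6* (1.83 and 1.02) were also among the leading 15. Also among them were *Gm12940*, *Gm37376*, *Myh9*, *Prpf39*, *Clasp2*, *Lrrc58*, *Slc25a36* and *Fam3c*. *Clasp2*, whose product binds microtubule ends, had ratios of 1.09 and 2.44. At the other end, *Ccl4*, a chemokine, had ratios of −4.35 and −1.28, followed by *AC154540.2*, *Eif3i*, *Nol7* and *Esd* with YFP− ratios of −2.87 to −2.75, each from at most 3 UMIs in shallow YFP− cells.

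Because Schwann markers led this list, their levels are set beside the result. The 5 Schwann markers summed to 4010, 788 and 465 CPM from the shallow to the deep bin of the YFP− library and to 1511, 538 and 471 CPM in the YFP+ library. In the 582 YFP− and 2549 YFP+ cells without a UMI of these markers, the depth ratio of *Notch2* was 1.62 and 1.83 and that of *Slc39a1* was 1.75 and 1.81. The ratio of *Fhl3* in YFP+ cells was 2.87. This comparison was added after the data were seen. It kept 877 of 1184 shallow and 652 of 1301 deep YFP+ cells, and a cell without such a UMI may still hold Schwann RNA, whose part in the result was not tested. Mitochondrial protein genes with *Malat1* and *Neat1* also moved with depth, from 69671 to 43193 CPM in the YFP+ and from 87101 to 38645 CPM in the YFP− library. With mitochondrial and ribosomal protein genes left out of the total, the ratios were 1.77 for *Notch2*, 2.97 for *Fhl3* and 1.69 for *Slc39a1* in YFP+ cells.

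Pairs of the 3 genes were found in the same cells more often than their separate frequencies and the depth of the cells gave. For *Notch2* with *Fhl3* in YFP− cells the interval included 1. The 3 genes were chosen from these same cells, and other pairs of genes at like levels were not counted. The ratios are therefore a description only. Expected numbers were taken within 20 strata of UMIs per cell. In YFP− cells 61 held both *Notch2* and *Slc39a1*, against 27.2 expected, which is a ratio of 2.24 (1.71 to 2.88). The YFP+ library had 347 such cells against 216, a ratio of 1.60 (1.44 to 1.78). *Fhl3* and *Slc39a1* shared 10 YFP− cells against 4.53 and 113 YFP+ cells against 58.8, ratios of 2.21 (1.06 to 4.06) and 1.92 (1.58 to 2.31). *Notch2* and *Fhl3* shared 147 YFP+ cells against 107, a ratio of 1.38 (1.16 to 1.62), and 11 YFP− cells against 8.35, a ratio of 1.32 whose interval of 0.66 to 2.36 includes 1. All 3 genes were present in 6 YFP− and 71 YFP+ cells. As a share of each gene's own cells, *Notch2* was in 49.4% of the YFP+ cells with *Slc39a1*, and *Slc39a1* was in 28.0% of those with *Notch2*.

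**Figure D4:**
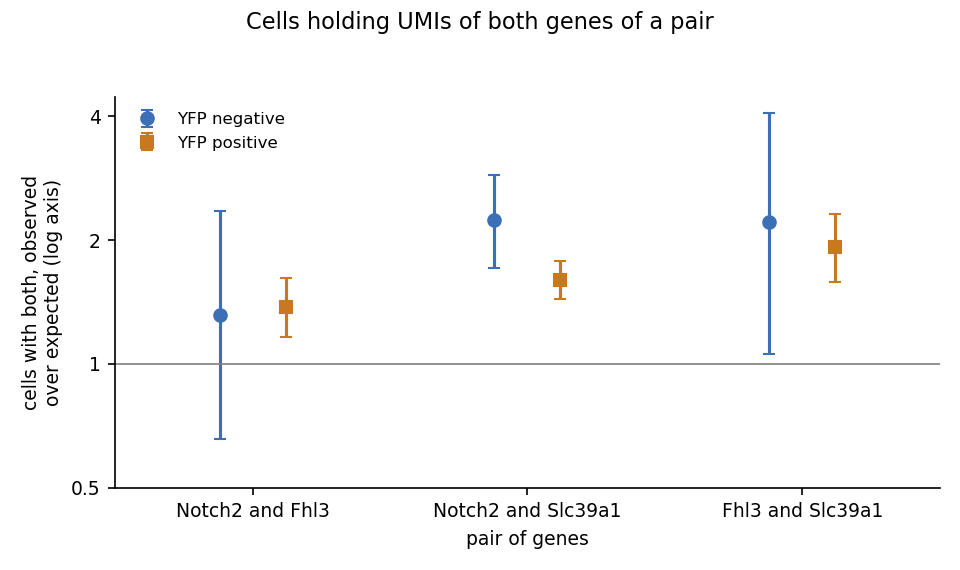
Cells with UMIs of both genes of a pair, observed over the number expected within strata of UMIs per cell (log axis), for YFP negative (circles) and YFP positive (squares) libraries with 95% intervals; the line marks 1. *Notch2* with *Slc39a1* and *Fhl3* with *Slc39a1* lie above 1 in both libraries, and the YFP negative interval of *Notch2* with *Fhl3* includes 1.

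Genes were then ranked by their excess of UMIs in cells with a UMI of each member, and *Actb* came first. The ranking used amounts and not detection, and *Actb* had a UMI in 97.9% of all YFP+ and 95.3% of all YFP− cells. Its UMIs in cells with a UMI of the member, over those expected at the same depth, had log2 ratios of 1.37 for *Notch2*, 0.97 for *Fhl3* and 1.95 for *Slc39a1* in YFP− cells, and of 1.02, 0.82 and 1.13 in YFP+ cells. *Gnb1*, a G protein subunit, came next, with a smallest log2 ratio of 0.37 over the 6 comparisons. *Srsf2*, *Ccl12*, *Adap2*, *Sdc4*, *Srrm2*, *Ap2a2*, *Marcksl1* and *Cd83* followed, with smallest ratios of 0.14 down to 0.07, among 650 genes with at least 20 expected UMIs in each comparison. The *Fhl3* comparison in YFP− cells rests on 38 cells. Without it, the ranking of 1927 genes began with *Actb*, *Sdc4*, *B4galt1*, *Cbx3*, *Zscan26*, *Lrrc58*, *Ptafr*, *Ncoa3*, *Gnb1* and *Mtss1*, with smallest ratios of 0.82 for *Actb*, 0.69 for *Sdc4*, a heparan sulfate proteoglycan, 0.63 for *B4galt1*, a galactosyltransferase, and 0.62 for *Cbx3*, a heterochromatin protein. This second ranking was made after the data were seen.

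In the YFP+ library the level of the members moved with the share of *Actb* inside a bin of depth, and in deep YFP− cells it did so too. Among shallow YFP+ cells, *Notch2* was at 251 CPM (197 to 316) in the tertile of cells with the least *Actb*, 733 CPM (639 to 836) in the middle tertile and 736 CPM (641 to 841) in the highest tertile, where *Actb* made up 3.70% of UMIs. *Slc39a1* rose from 93.0 CPM (61.3 to 135.3) to 320 CPM (259 to 391) and 402 CPM (333 to 481), and *Fhl3* from 37.9 CPM (18.9 to 67.8) to 170 CPM (127 to 223) and 313 CPM (253 to 384). In deep YFP+ cells *Notch2* was at 52.7 CPM (40.4 to 67.8) in the lowest and 369 CPM (335 to 405) in the highest tertile. *Notch2* was thus higher in the highest than in the lowest tertile at both ends of depth in YFP+ cells. *Actb* was chosen for its excess of UMIs in those of these same cells that held a member. Such a split was therefore bound to lean this way, and it is a description only. In shallow YFP− cells, 50 to a tertile, *Notch2* was at 166 CPM (60.9 to 361.4), 25.6 CPM (0.65 to 142.6) and 727 CPM (483 to 1050.4) from the lowest to the highest tertile. *Slc39a1* was at 27.7 CPM from 1 UMI, 0 and 441 CPM (257 to 707) there, and the single *Fhl3* UMI was in the lowest tertile. No steady order was seen in those cells. In deep YFP− cells *Notch2* was at 45.3 CPM (29.9 to 66.0), 69.8 CPM (50.9 to 93.4) and 226 CPM (191 to 267) in the same order. *Slc39a1* was at 13.4 CPM (5.80 to 26.5), 17.1 CPM (8.52 to 30.5) and 149 CPM (121 to 183), and *Fhl3* at 3.36, 9.30 and 29.9 CPM. In middle YFP− cells the highest tertile was also highest for *Notch2*, at 290 CPM against 101 and 74.4 CPM. Within the lowest tertile of each bin, the depth ratios in YFP+ cells were 2.23 for *Notch2*, 2.15 for *Fhl3* and 1.85 for *Slc39a1*. The *Fhl3* ratio rests on 11 shallow and 9 deep UMIs. *Actb* was not level between these tertiles, at 0.423% of UMIs in shallow and 0.201% in deep YFP+ cells. This split was added after the data were seen.

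Length of the longest run of thymines was then compared with the depth ratio over genes other than *Notch2*, *Fhl3*, *Slc39a1* and *Actb*. In the YFP+ library, 54 of 225 genes with a run of at least 22 were at least 2-fold higher in shallow cells (24%), against 85 of 5292 genes with a shorter run (1.61%). Their median log2 ratios were 0.56 and 0.07. In the YFP− library the shares were 36 of 216 (16.7%) and 1065 of 5678 (18.8%), with medians of 0.47 and 0.28. The difference in shares was thus seen in the YFP+ library and not in the YFP− library, and the libraries were not tested against each other. In the shallow YFP− bin of 150 cells, 3 UMIs come to 26.4 CPM, above the filter of 20 CPM on the mean. Shares there rest partly on low counts, so the absence of a difference cannot be read from them. By class of length, the median in the YFP+ library went from −0.02 for runs under 9 to 0.40 for 21 to 23, 0.62 for 24 to 26, 0.48 for 27 to 29 and 0.91 for 30 or more, the last over 33 genes. Runs of adenines served as a comparison, and there the YFP+ medians were 0.00 for runs under 9 and 0.35 for 30 or more, over 24 genes. Between the same classes, the share at least 2-fold higher went from 2.17% to 8.33% for adenines and from 1.58% to 45.5% for thymines. In the YFP− library the medians for these classes were 0.20 and 0.47 for adenines and 0.19 and 0.15 for thymines. The 2 bases were thus not set apart there.

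**Figure D5:**
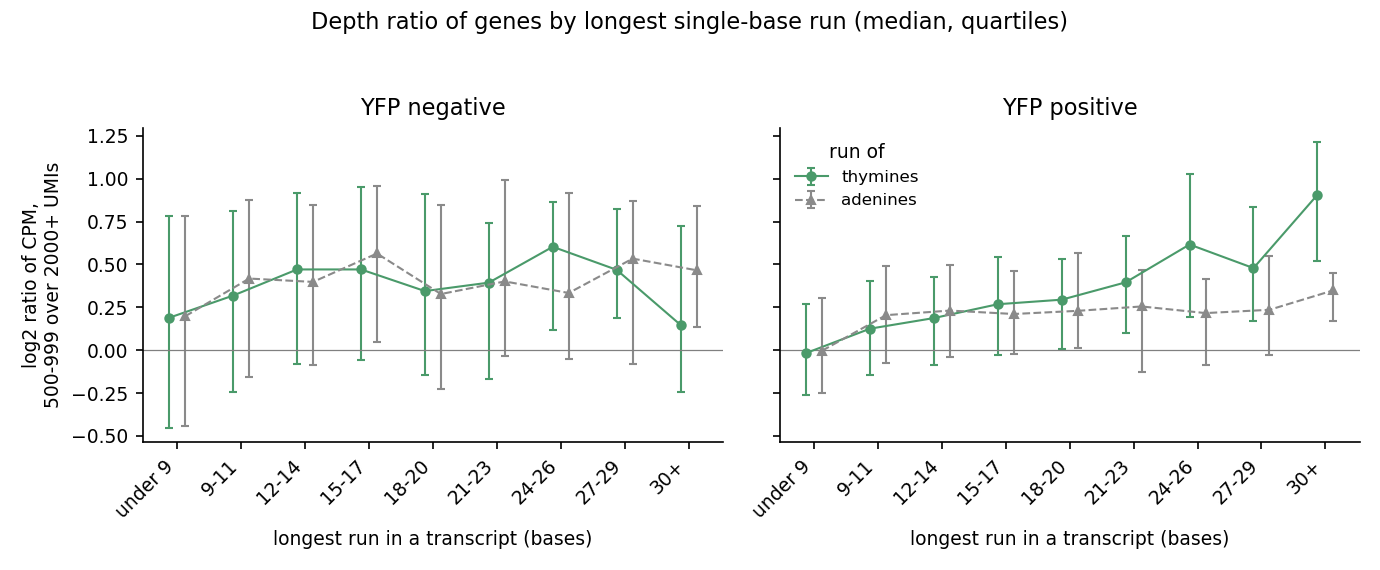
Median log2 ratio of CPM in shallow over deep cells, with quartiles as bars, for genes grouped by the longest run of thymines (green circles) or adenines (grey triangles) in an annotated transcript, without *Notch2*, *Fhl3*, *Slc39a1* and *Actb*. In the YFP positive library the median for thymines reaches 0.91 at 30 or more, and in the YFP negative library it is 0.19 for runs under 9, reaches 0.60 for 24 to 26 and is 0.15 at 30 or more, over 29 genes.

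Genes with such runs were also frequent among the genes most like the members. Of the 10 genes with the largest excess of UMIs in cells with the members, 5 had a run of at least 22 thymines. Of all 649 genes of that ranking with an annotation, 19 had one (2.93%). In the ranking without *Fhl3* in YFP− cells it was 9 of 10, against 66 of 1926 (3.43%), and the remaining gene, *Lrrc58*, had a run of 19. *Actb*, in which the run had been noticed along with the 3 genes, is counted in both lists. In each list the run lay within 600 bases of the transcript end in only 2 genes, among them *Actb*. Over the ranked genes it did so in 3 of the 19 and 15 of the 66. Of the 15 genes most like *Notch2* and *Slc39a1* in depth, 4 had such a run (*Gm12940*, *Clasp2*, *Slc25a36* and *Fam3c*), against 100 of 2410 (4.15%). It lay within 600 bases of the end in 3 of the 4, against 27 of the 100. At the low end of that ranking, *Eif3i* also had a run of 22, with depth ratios of −2.79 in YFP− and −0.73 in YFP+ cells. Summed over 589 genes with such runs, without the 3 members and *Actb*, they made up 2.98%, 2.41% and 2.12% of UMIs from the shallow to the deep bin of YFP+ cells and 2.43%, 2.24% and 2.02% in YFP− cells. A run in the annotation is a property of the sequence, and its part in the levels was not tested.

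Other genes of the same pathways were counted from lists, with values for those that passed the mean of 20 CPM. Among Notch receptors, *Notch1* had depth ratios of 1.62 (0.12 to 2.87) in YFP−, from 6 UMIs in the shallow bin, and 0.27 (−0.37 to 0.87) in YFP+ cells, and *Notch3* and *Notch4* were below that level in both libraries. Of 7 ligands, *Jag1* alone passed, in the YFP+ library, with a ratio of 1.26 (0.66 to 1.84), and the longest thymine run in its transcripts is 23. Of the genes that process the receptor, such as the gamma-secretase gene *Ncstn*, 0 of 11 were 2-fold higher in shallow YFP+ cells and 2 of 12 in YFP− cells, *Mfng* at 1.38 (−0.11 to 2.61) and *Rfng* at 1.08 (−0.40 to 2.28), which is near the share over all genes of 2.59% and 18.7%. The longest thymine run is 15 in *Notch1*, 5 in *Mfng* and 5 in *Rfng*. Among nuclear partners and regulators, *Maml2*, a coactivator with a run of 24, had a ratio of 1.09 (0.67 to 1.503) in YFP+ cells, and *Rbpj*, the partner of the cleaved receptor, had ratios of −0.17 (−0.44 to 0.09) in YFP+ and 0.79 (0.24 to 1.30) in YFP− cells. *Hes6* was the only one of 8 target genes above the filter, at 0.44 (−0.12 to 0.98) in YFP+ cells and 0.68 (−0.77 to 1.87) in YFP− cells.

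No other gene of the FHL family passed the filter. Of the ZIP zinc importers, *Slc39a10* had ratios of 1.07 (−0.18 to 2.12) in YFP− and 0.32 (−0.19 to 0.81) in YFP+ cells, and *Slc39a9* passed in YFP− cells only, at 2.29 (0.33 to 3.88) from 4 UMIs in the shallow bin. The zinc exporters, of the ZnT family, had 2 of 3 genes at least 2-fold higher in shallow YFP− cells, *Slc30a5* and *Slc30a7*, each at 1.92 (0.71 to 2.97) from 9 shallow UMIs, and 0 of 2 in YFP+ cells, beside 18.7% and 2.59% of all genes. *Slc30a9*, which has a run of 26, had ratios of 0.84 (−1.01 to 2.29) and 0.41 (−0.26 to 1.04). Of the metallothioneins, which bind zinc, *Mt1* had ratios of −0.07 (−0.33 to 0.17) and 0.13 (0.03 to 0.23), *Mt2* of 1.52 (0.98 to 2.02) and 0.41 (0.11 to 0.70), and *Mt3* of 5.89 (4.61 to 7.04) and 2.49 (1.94 to 3.05), in YFP− and YFP+ cells. Their longest thymine runs are 4, 6 and 5. Those of *Slc30a5* and *Slc30a7* are 8 and 13, and those of *Slc39a9* and *Slc39a10* are 11 and 9. Among 6 genes of actins and actin-binding proteins, *Actb* had a ratio of 1.40 (1.38 to 1.43) in YFP+ cells. The other 5, with longest runs of 4 to 21 thymines, had ratios of −0.73 to −0.14 in YFP+ cells. In YFP− cells *Actb* had a ratio of 0.36 (0.25 to 0.47), beside a median of all genes of 0.28. The other 5 had ratios of −0.92 to −0.23 there.

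The libraries were compared as a whole and within bins, since the YFP+ cells were shallower. Over all cells, the log2 ratio of YFP+ over YFP− was 1.02 (0.85 to 1.20) for *Notch2*, 1.69 (1.24 to 2.15) for *Fhl3* and 0.80 (0.57 to 1.04) for *Slc39a1*. Of 5531 genes, 14 were at least 2-fold higher in the YFP+ library (0.253%), among them *Notch2* and *Fhl3*. Within the deep cells the ratios were 0.49 (0.26 to 0.72), 0.50 (−0.12 to 1.14) and 0.41 (0.10 to 0.73), and there 0.389% of genes were at least 2-fold higher. The interval of *Fhl3* included 0 among deep cells. RNA outside cells differed between the libraries too, with 235 against 89.1 CPM for *Notch2*, 70.8 against 29.7 CPM for *Fhl3* and 106 against 45.1 CPM for *Slc39a1* in barcodes of 10 to 99 UMIs, YFP+ against YFP−. Its part in the difference between cells was not tested. In shallow cells the ratios were 0.90 (0.41 to 1.44) for *Notch2*, 0.78 (0.09 to 1.55) for *Slc39a1* and 4.16 (1.79 to 7.17) for *Fhl3*, the last from 1 YFP− UMI, where 6.87% of genes were at least 2-fold higher. In middle cells they were 1.01 (0.65 to 1.395), 1.10 (0.33 to 1.97) and 0.52 (0.05 to 1.02) for *Notch2*, *Fhl3* and *Slc39a1*, where 1.28% of genes were. *Actb* had ratios of 0.99 over all cells and 0.54 (0.51 to 0.58) in deep cells. With 1 library per group, the origin of the cells and the library cannot be told apart.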

How the data were processed

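Sciatic nerve macrophages sorted as YFP− and YFP+ were captured with the 10X Chromium Single Cell v2 kit, 1 library each. The authors deposited unnormalised UMI counts for each gene and barcode, made with Cell Ranger on GRCm38 (the submitters' processing notes name Cell Ranger 3.0.2 and Seurat 2.2.0). No filter on cells had been applied to the counts, and the release of the annotation is not given in the sources used here. The study kept cells by mapped reads, which were not used here.

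Barcodes with at least 500 UMIs and 200 genes were taken as cells, and doublets were kept. Columns of other samples numbered 0. Cells held 66.2% of 3653688 UMIs in the YFP− and 72.0% of 9365598 UMIs in the YFP+ library. Levels are CPM of summed counts with exact Poisson intervals, shares have exact binomial intervals, and log2 ratios (pseudocount 1 CPM) have exact conditional binomial intervals, all at 95%. UMIs mark molecules, and these intervals cover counting error only. The floor of 3 counts comes to 1.24 CPM over all YFP− and 0.445 CPM over all YFP+ cells. Joint detection used 20 strata of UMIs per cell. The scripts were tested on simulated data. Python 3.11.15, numpy 2.4.6, scipy 1.17.1, pandas 2.3.3 and matplotlib 3.10.9 were used.

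The genes and lists were chosen with earlier results of these data known. Named genes are the 3 members, the 15 most like and 5 least like in depth (mean CPM of at least 50), the 10 with the largest excess of UMIs in cells with the members (at least 20 expected UMIs), and genes of the lists whose values are used. Some genes that this rule would name are not reported here. Runs of thymines and adenines were found in all GENCODE M21 transcripts of each gene, and the longest was kept. Sequences are from the transcripts of that release.

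Alternatives changed how cells were binned, weighted, filtered and thinned, the pseudocount, the total, the centring and the removal of free RNA.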

Additional observations from a re-analysis of the deposited data

Results flagged for a closer look

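The depth ratio of *Fhl3*, as log2 of CPM in shallow over deep cells, had opposite signs in the libraries, with −0.65 in YFP− and 3.01 in YFP+ cells. This difference was not tested. The YFP− value rests on 1 UMI in the shallow bin and its interval includes 0, so no direction can be read for it. Its interval of −3.70 to 1.81 lies below the YFP+ interval of 2.61 to 3.41.

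Signal of all 3 genes was also present in barcodes that are not cells, above the limit of 3 UMIs. In the YFP+ library, barcodes of 1 to 9 UMIs held *Notch2* at 602 CPM, *Fhl3* at 252 CPM and *Slc39a1* at 233 CPM, and barcodes of 100 or more but under 500 UMIs held them at 467 CPM, 94.8 CPM and 178 CPM. In the YFP− library the levels were 139 CPM, 105 CPM and 143 CPM in barcodes of 1 to 9 UMIs and 112 CPM, 78.2 CPM and 78.2 CPM in those of 100 or more but under 500 UMIs. For *Notch2* and *Fhl3* in the YFP+ library the level in the poorest barcodes was not below that in the shallowest cells, at 576 CPM and 174 CPM. Barcodes of 10 to 99 UMIs, in between, had lower values of all 3 genes in both libraries. In the YFP− library the values at 100 or more but under 500 UMIs rest on 10, 7 and 7 UMIs. Their intervals overlapped those of barcodes of 10 to 99 UMIs for all 3 genes, as did that of *Fhl3* in the YFP+ library. For *Notch2* in the YFP− library, the interval of barcodes of 1 to 9 UMIs overlapped it too. *Actb* followed the same order in the YFP+ library, with 2.19%, 0.941% and 1.06% of UMIs in the same 3 classes of barcodes, from the poorest up. In the YFP− library it did not, with 0.766%, 0.416% and 0.384%. A source of these UMIs was not tested.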

How the results depend on the processing

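The depth ratios of *Notch2* and *Slc39a1* stayed above 0 in both libraries under all 14 alternatives, as did that of *Fhl3* in YFP+ cells, and that of *Fhl3* in YFP− cells was above 0 under 4 of 14. Against deep cells, the middle bin gave 0.42 for *Notch2* in YFP− cells and 0.94 (*Notch2*), 1.73 (*Fhl3*) and 0.75 (*Slc39a1*) in YFP+ cells. In the lowest tertile of the *Actb* share of each bin, *Notch2* had 2.23 and *Fhl3* 2.15 in YFP+ and *Fhl3* 2.72 in YFP− cells, the last from 1 shallow and 2 deep UMIs. With 10% free RNA removed, *Fhl3* had 3.53 in YFP+ cells. In YFP− cells, *Fhl3* had 1.92 with bins and levels from separate random parts of the UMIs and −4.07 without cells that held a Schwann UMI, where the shallow bin held no *Fhl3* UMI and the value depends on the pseudocount. The library ratio of *Notch2* was 0.85 in cells of at least 1000 UMIs and 0.49 in deep cells. That of *Fhl3* was 2.27 with equal weight of cells, 1.15 with at least 1000 UMIs, and 4.16, 1.10 and 0.50 in the shallow, middle and deep bins. That of *Slc39a1* was 0.52 and 0.41 in the middle and deep bins and 1.06 without cells with a Schwann UMI. With cells thinned to 500 UMIs, joint detection of *Fhl3* and *Slc39a1* in YFP+ cells was 1.38, and no YFP− cell held both *Notch2* and *Fhl3* (0). The count of genes at least 2-fold higher in shallow cells, 1103 in YFP− and 143 in YFP+, was 392 and 56 with a mean of 50 CPM, 3226 and 2126 with no filter, and 680 in YFP− with the median set to 0. Shares of cells moved with the thinning in 29 of 36 cases. No paired analysis was possible because each group is 1 library. Causes of these shifts were not tested. Depth limits *Fhl3* in YFP− cells most, with 42 UMIs.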
